A study of Mus musculus with 16 samples.

Results

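The HoxD cluster was examined as the 9 genes Hoxd1, Hoxd3, Hoxd4, Hoxd8, Hoxd9, Hoxd10, Hoxd11, Hoxd12 and Hoxd13, out of 26180 gene symbols with a curated RefSeq transcript, together with every peak in a window of 120001 bp around them. The genes span chr2:74668225-74765142 (GRCm38), and the window adds 13225 bp on the Hoxd13 side, where it reaches into the last exon of Evx2, and 9858 bp on the Hoxd1 side. A gene counted as marked by a list if at least 1 of its start sites had a peak of that list within 2500 bp upstream or downstream. The study profiled H3K4me3, H3K27me3 and the Polycomb protein Suz12 by ChIP-seq in mouse embryonic stem cells (ESCs) to compare cells kept by leukaemia inhibitory factor (LIF) with cells kept by an active Myc. Both cultures were R1 ESCs without feeders, in serum and vitamin C, that carry an exogenous MycT58A fused to the oestrogen receptor (MycER), a fusion active only when 4-hydroxytamoxifen (OHT) is added. The study's methods name this line as a single clone, so both cultures stand for 1 clone. LIF-ESCs received 100 units/ml LIF and Myc-ESCs received 50 nM OHT in place of LIF, so LIF and OHT differ together between the cultures and their parts cannot be told apart. The labels name 16 libraries, 2 per culture and antibody and 4 inputs, whereas the deposited values are 6 peak lists, 1 per culture and antibody. The comparisons therefore have no replicate error and no test, the depth behind each peak is unknown, and every difference is given as a description.

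Hox genes encode homeodomain transcription factors that set the position of cells along the body axis, and those of the HoxD cluster are known above all for patterning the limbs, the trunk and the urogenital and digestive tracts. The genes lie in the order in which they are used, from Hoxd1 and Hoxd3, used early and anteriorly, to Hoxd13, used late, in digits and external genitalia. In ESCs they are largely silent. Polycomb repressive complex 2 (PRC2), of which Suz12 is a core subunit, places H3K27me3 on such genes, while H3K4me3, the mark of active or poised promoters, sits at many of the same start sites, a state called bivalent.

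Promoter sequences are shown for 6 start sites, because they carry the differences in H3K4me3 and the matches to CACGTG, the E-box that Myc and its partner Max are known to bind. Each is the 250 bp before a start site on the plus strand (RefSeq, GRCm38), in lower case with CACGTG in capitals. All 9 genes had an entry, and Hoxd11 had one for each of its start sites. The first 4 hold the motif in these bases, and they lie at chr2:74667975-74668224 for Hoxd13, chr2:74682073-74682322 for the downstream start site of Hoxd11, chr2:74691641-74691890 for Hoxd10 and chr2:74762730-74762979 for Hoxd1. The last pair, chr2:74704365-74704614 for Hoxd8 and chr2:74721728-74721977 for Hoxd4, lies before the start sites of the only members whose H3K4me3 call differed between the cultures.
Hoxd13: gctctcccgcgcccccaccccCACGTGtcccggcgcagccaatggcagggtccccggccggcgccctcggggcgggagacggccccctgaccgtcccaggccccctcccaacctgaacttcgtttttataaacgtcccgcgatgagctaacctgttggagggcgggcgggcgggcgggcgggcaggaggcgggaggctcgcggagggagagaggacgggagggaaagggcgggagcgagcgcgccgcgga
Hoxd11: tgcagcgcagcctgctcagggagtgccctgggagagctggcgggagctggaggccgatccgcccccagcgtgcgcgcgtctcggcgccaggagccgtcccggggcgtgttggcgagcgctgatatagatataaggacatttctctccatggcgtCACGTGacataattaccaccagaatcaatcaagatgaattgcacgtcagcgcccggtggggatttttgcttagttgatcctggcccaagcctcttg
Hoxd10: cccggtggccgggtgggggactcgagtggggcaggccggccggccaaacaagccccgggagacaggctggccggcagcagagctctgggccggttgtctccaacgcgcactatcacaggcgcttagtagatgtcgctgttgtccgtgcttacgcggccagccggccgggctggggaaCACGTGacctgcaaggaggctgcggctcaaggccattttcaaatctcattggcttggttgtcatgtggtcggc
Hoxd1: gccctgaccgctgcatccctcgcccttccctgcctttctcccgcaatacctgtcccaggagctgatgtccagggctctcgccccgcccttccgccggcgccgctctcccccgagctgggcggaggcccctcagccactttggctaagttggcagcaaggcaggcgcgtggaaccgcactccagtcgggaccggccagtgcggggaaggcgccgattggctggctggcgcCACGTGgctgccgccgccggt
Hoxd8: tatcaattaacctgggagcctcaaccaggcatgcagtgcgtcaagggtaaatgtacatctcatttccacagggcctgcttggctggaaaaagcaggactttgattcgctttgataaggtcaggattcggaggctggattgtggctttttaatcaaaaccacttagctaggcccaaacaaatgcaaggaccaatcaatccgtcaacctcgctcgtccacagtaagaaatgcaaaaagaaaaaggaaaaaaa
Hoxd4: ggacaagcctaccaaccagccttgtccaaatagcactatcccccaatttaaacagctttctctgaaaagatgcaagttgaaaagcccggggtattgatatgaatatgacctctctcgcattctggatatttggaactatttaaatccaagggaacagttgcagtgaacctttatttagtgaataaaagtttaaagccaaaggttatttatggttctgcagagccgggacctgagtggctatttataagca

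The stretch before Hoxd10 was covered over all 250 bp by H3K4me3 and by Suz12 in both cultures, and by no H3K27me3 peak in either. The stretches before Hoxd13 and Hoxd1 were covered over all 250 bp by H3K4me3 in both cultures, and by Suz12 over 0 bp in LIF-ESCs and over 107 and 109 bp in Myc-ESCs. At Hoxd13 the 107 bp lie at the edges of peaks, and both cultures had Suz12 peaks on either side of a gap. The peaks ended at chr2:74667964 and began again at chr2:74668270 in LIF-ESCs, against chr2:74668000 and chr2:74668144 in Myc-ESCs. The downstream start site of Hoxd11, which lies in intron 1 of its longer transcript, had Suz12 over all 250 bp and no H3K4me3 in either culture. The stretch before Hoxd8 had H3K4me3 over 250 bp in LIF-ESCs against 0 bp in Myc-ESCs with Suz12 over all 250 bp in both, and the stretch before Hoxd4, in intron 1 of Hoxd3, had no H3K4me3 in either and Suz12 over 146 bp in LIF-ESCs only. Among the 10 member promoters, counted from 250 bp before to 50 bp after the start site, 5 held CACGTG, against 7.15% of 32851 promoters of that length. The match at Hoxd4 runs across the start site itself and is not among the bases shown. The motif reads the same on both strands. The member promoters were also richer in CpG, with a median of 20.0 CpG dinucleotides each against 7.00 for all promoters.

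By bases covered, H3K27me3 differed most between the cultures over the cluster. In LIF-ESCs 32 H3K27me3 peaks covered 6.20 kb, or 5.17% of the window, and in Myc-ESCs 145 peaks covered 43.1 kb, or 35.9%. Suz12 lay over most of the window in both, with 78.7 kb (65.6%) in LIF-ESCs and 88.3 kb (73.6%) in Myc-ESCs. H3K4me3 covered 21.4 kb (17.9%) and 31.0 kb (25.8%). The ratio of bases covered, Myc-ESCs over LIF-ESCs, was thus 6.95 for H3K27me3, 1.12 for Suz12 and 1.45 for H3K4me3. Over the whole lists the same ratios were 5.52, 1.51 and 0.977.

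**Figure D1:**
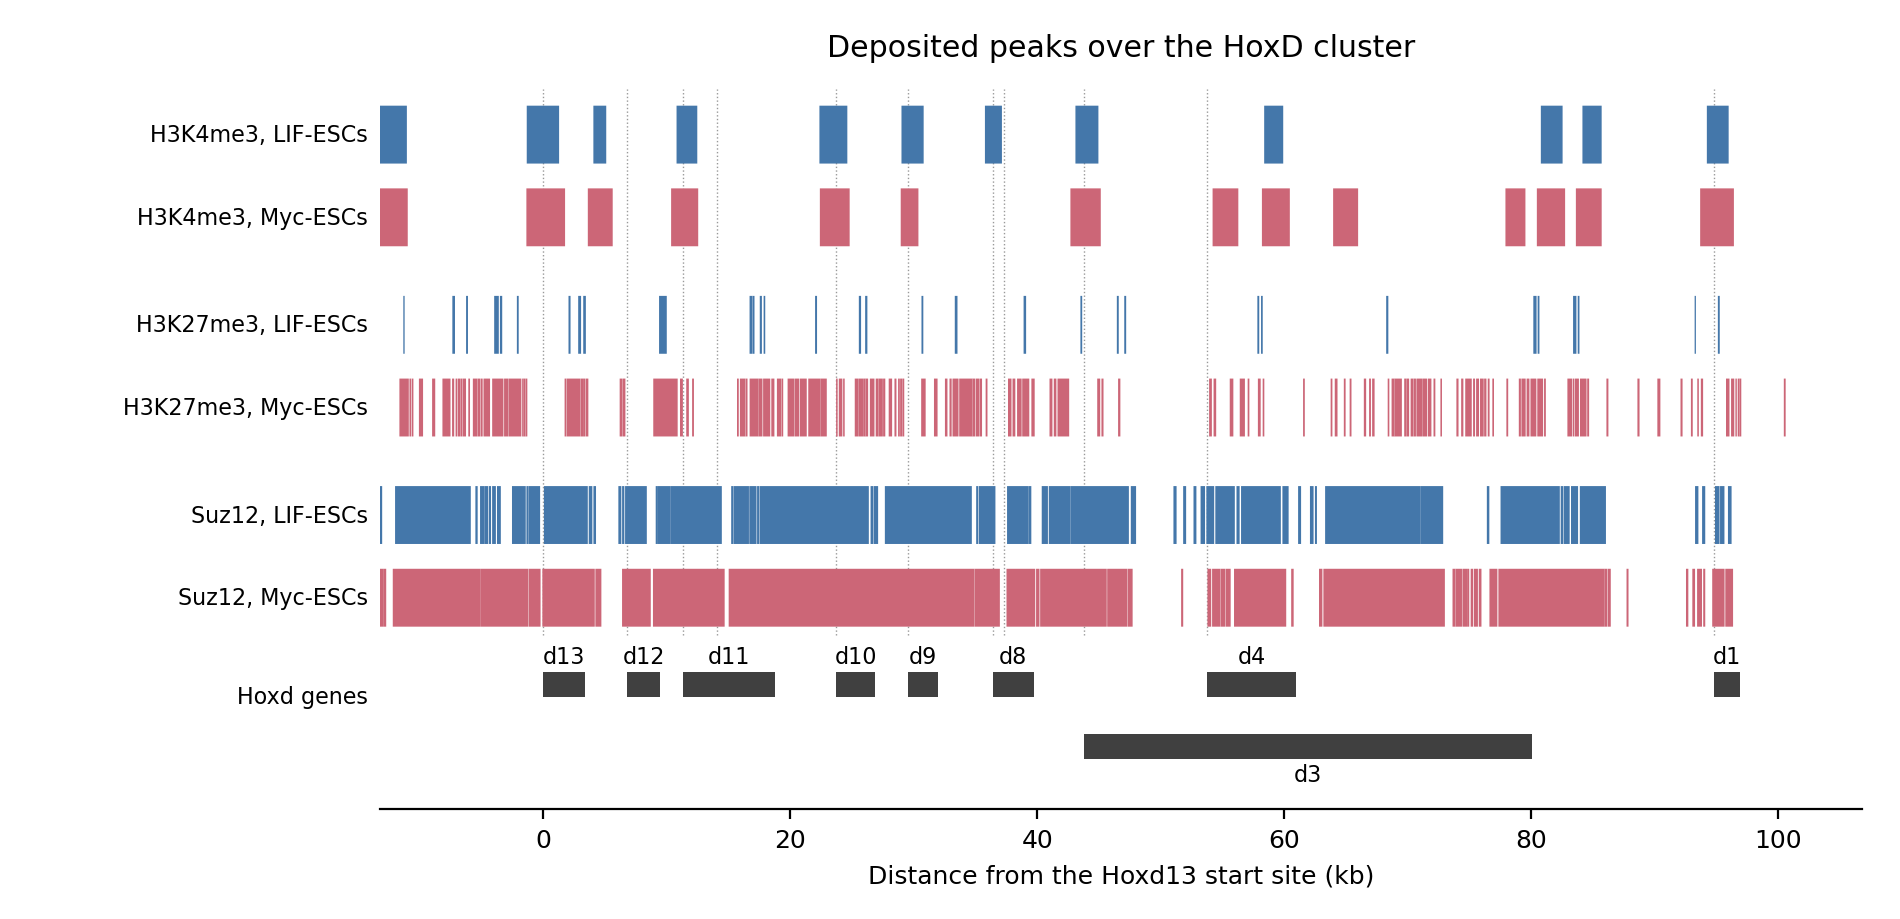
Peaks of the 6 deposited lists along the HoxD window, in kb from the Hoxd13 start site (blue, LIF-ESCs; red, Myc-ESCs), with dotted lines at the start sites of the 9 genes and the genes drawn below. H3K27me3 is a scatter of 32 short peaks in LIF-ESCs and 145 peaks in Myc-ESCs, both within a broad cover of Suz12 that thins between the start sites of Hoxd3 and Hoxd4 and before Hoxd1.

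The H3K27me3 list of Myc-ESCs was the longer one across the genome, with 16717 peaks against 3120, so a difference in how many peaks could be called and a difference in the mark cannot be told apart from the lists alone. With the Myc-ESC list limited to its 3120 highest-scoring peaks, its peaks covered 27474 bp of the window, 4.43 times the 6200 bp of LIF-ESCs. These Myc-ESC peaks scored 103.8 or more, whereas the LIF-ESC list was kept whole, from a score of 50.01. The ratio of bases over the whole lists is not given under this limit, so 4.43 cannot be read as particular to the cluster. Whether list length accounts for the difference was not tested. The score of a peak is -10 times the log10 of its p-value from MACS, and the deposited lists start at 50. In the window 60 of the 145 Myc-ESC H3K27me3 peaks (41.4%) scored at least 100, against 20.2% of that list as a whole. In LIF-ESCs it was 5 of 32 (15.6%), against 10.9% of the list. The peaks were also longer than usual in Myc-ESCs, with a median of 212 bp against 162 bp over the list, whereas the LIF-ESC medians were 162 bp and 157 bp.

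How many LIF-ESC H3K27me3 peaks met one of Myc-ESCs depended on the overlap asked for. Of the 32 peaks 27 (84.4%) overlapped a Myc-ESC peak by at least 1 bp, and 27 of the 145 Myc-ESC peaks (18.6%) overlapped a LIF-ESC peak, against 51.6% and 8.95% of the whole lists. When the overlap had to reach 50% of both peaks, 6 peaks of each culture were shared. These were 18.8% of the 32 and 4.14% of the 145, against 19.1% and 3.56% of the whole lists. In bases, 4867 bp were covered in both cultures, 1333 bp in LIF-ESCs only and 38204 bp in Myc-ESCs only. For Suz12 75168 bp were covered in both, 3581 bp in LIF-ESCs only and 13102 bp in Myc-ESCs only. Most Myc-ESC H3K27me3 therefore lay where no LIF-ESC H3K27me3 peak was called, yet nearly all of it lay on Suz12: 93.3% of the Myc-ESC H3K27me3 bases and 94.1% of the LIF-ESC ones were inside a Suz12 peak of the same culture, while Suz12 peaks made up 73.6% and 65.6% of the window. For H3K27me3 peaks of the whole genome the shares inside Suz12 were 48.8% and 45.2%.

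The overlap of H3K27me3 with H3K4me3 was taken in both directions. In Myc-ESCs 17.7% of the H3K27me3 bases of the window lay in an H3K4me3 peak, while H3K4me3 peaks made up 25.8% of the window, and in LIF-ESCs the shares were 8.94% and 17.9%. Over the whole genome 28.7% of Myc-ESC and 26.6% of LIF-ESC H3K27me3 bases lay in H3K4me3. Conversely, 24.6% of the H3K4me3 bases of the window lay in H3K27me3 in Myc-ESCs, against 1.21% over the genome, and 2.58% in LIF-ESCs, against 0.198%. Within Myc-ESC Suz12 peaks, H3K27me3 covered 25.9% of the bases that also carried H3K4me3 and 54.6% of the bases that did not. In LIF-ESCs these were 3.07% and 8.66%. Bases with all 3 marks amounted to 538 bp in LIF-ESCs against 7243 bp in Myc-ESCs.

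At the start sites, all 9 genes had Suz12 in both cultures (12.1% of all genes in LIF-ESCs against 14.6% in Myc-ESCs). H3K27me3 marked 7 of the 9 in LIF-ESCs (3.82% of all genes) and all 9 in Myc-ESCs (10.7%). The additional genes were Hoxd12 and Hoxd4, with H3K27me3 in Myc-ESCs only (7.65% of all genes), and no member had it in LIF-ESCs only (0.733%). Among the 3156 genes with Suz12 in LIF-ESCs, H3K27me3 was called at 26.2% (LIF-ESCs) and 66.3% (Myc-ESCs), and H3K4me3 at 92.0% and 96.5%. H3K4me3 marked 8 of 9 in each culture (62.2% and 63.3% of all genes), with Hoxd8 marked in LIF-ESCs only (1.21%) and Hoxd4 in Myc-ESCs only (2.35%). Peaks of all 3 kinds were found at 7 genes in LIF-ESCs (2.77% of all genes), 8 in Myc-ESCs (8.87%) and 6 in both (2.37%). These counts rest on short peaks in LIF-ESCs. Within 1000 bp of the start sites, H3K27me3 was called at 2 genes in LIF-ESCs, Hoxd3 and Hoxd1 (1.74% of all genes), and at 7 in Myc-ESCs (6.20%). With peaks of score 100 or more it was called at Hoxd11 alone in LIF-ESCs (0.458%) and at all 9 in Myc-ESCs (3.73%). Within 5000 bp it was called at all 9 in both cultures (4.74% and 11.9%), so that no member, Hoxd12 and Hoxd4 included, had it in Myc-ESCs only.

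The bases covered within the gene windows gave the same picture gene by gene. H3K27me3 covered more bases in Myc-ESCs at 9 of 9 genes, with a median of 204 bp in LIF-ESCs against 1878 bp in Myc-ESCs. The LIF-ESC values ran from 0 to 625 bp and the Myc-ESC values from 726 to 3412 bp, without overlap. Over the whole lists Myc-ESC H3K27me3 covered 5.52 times the bases of LIF-ESCs. The median share covered at all marked genes was 3.12% in LIF-ESCs and 6.36% in Myc-ESCs. How many of all genes had more bases in Myc-ESCs is not given here, so 9 of 9 cannot be read as particular to these genes. Suz12 covered more at 6 genes, less at 2 and the same at 1, with medians of 4455 and 4967 bp. H3K4me3 covered more at 7 and less at 2, with medians of 1766 and 2194 bp. Over the whole lists the ratio of bases, Myc-ESCs over LIF-ESCs, was 1.51 for Suz12 and 0.977 for H3K4me3. The same counts over all genes are not given for Suz12 or H3K4me3 either. They too cannot be read as particular to these genes. The windows of neighbouring genes overlap in places, so the genes share some peaks.

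**Figure D2:**
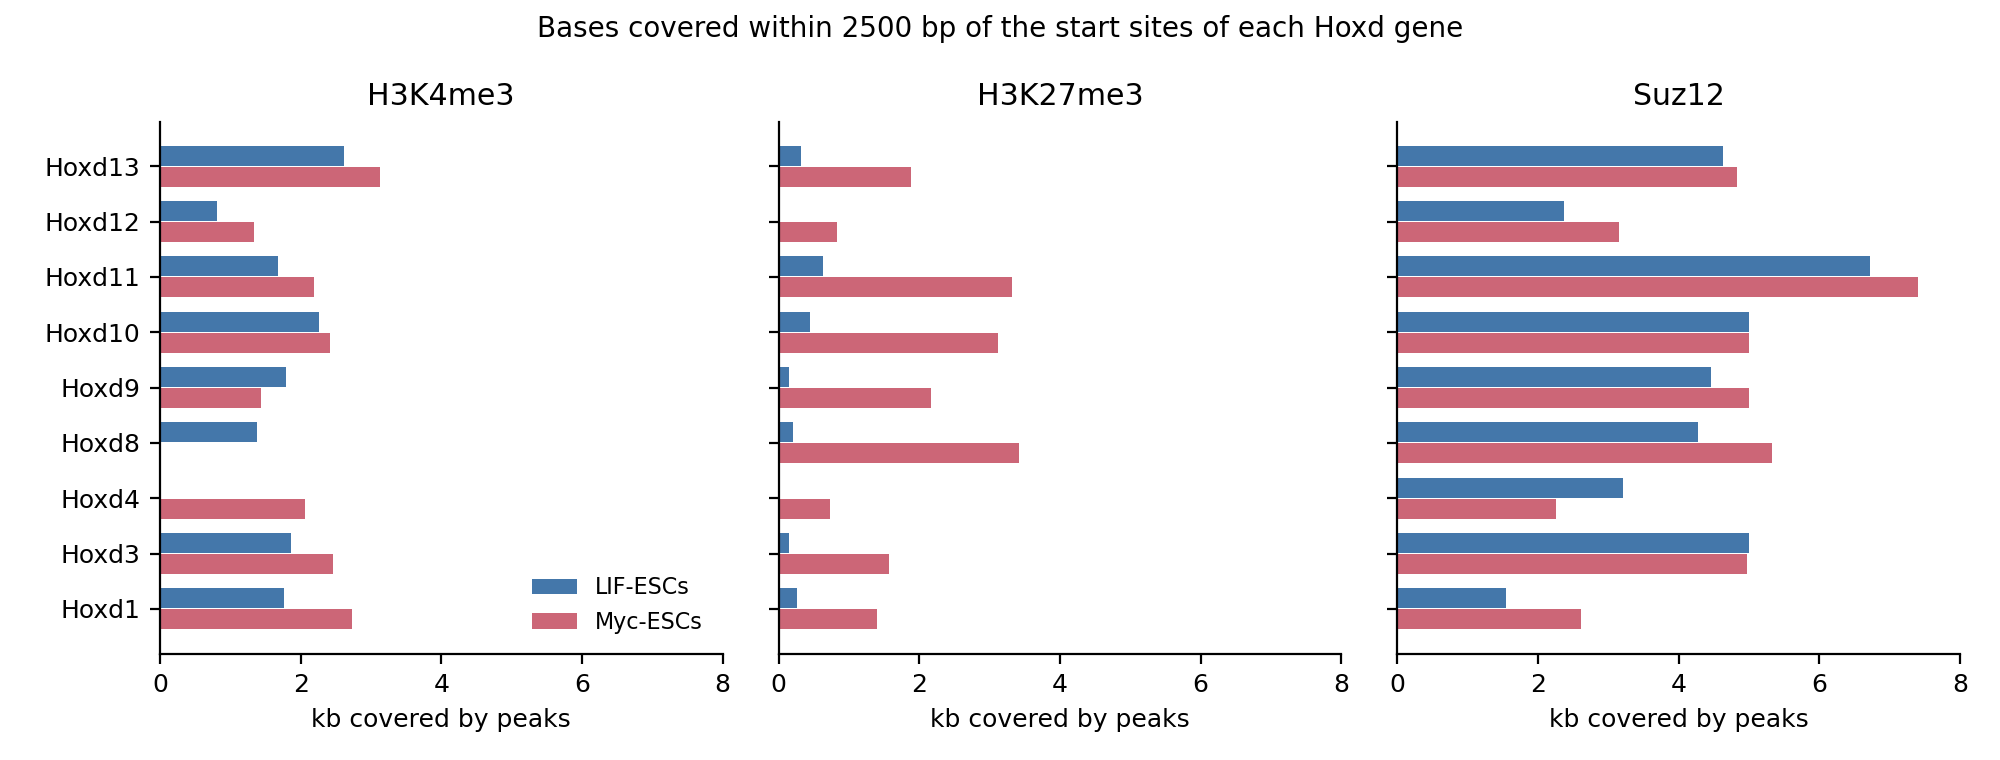
Kilobases covered by peaks within 2500 bp of the start sites of each Hoxd gene in LIF-ESCs (blue) and Myc-ESCs (red), from Hoxd13 at the top to Hoxd1. H3K27me3 covers more in Myc-ESCs at 9 of 9 genes, and the whole Myc-ESC list covers 5.52 times the bases of the LIF-ESC list. H3K4me3 is absent at Hoxd4 in LIF-ESCs and at Hoxd8 in Myc-ESCs. The windows of Hoxd11 and Hoxd8 are longer because each has 2 start sites.

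Hoxd13, the most posterior member and a regulator of digit formation, had 313 bp of H3K27me3 in LIF-ESCs against 1878 bp in Myc-ESCs. The strongest Myc-ESC H3K27me3 peak at the gene scored 638 and lies wholly in exon 2 (chr2:74670120-74671209, 1090 bp), where a LIF-ESC peak of 235 bp and score 168 (chr2:74671047-74671281) overlaps it but starts past the 2500 bp limit and is not in the covered bases. H3K4me3 lay over the start site in both cultures, with 2620 and 3133 bp. Suz12 covered 4634 and 4829 bp, and in LIF-ESCs its peaks lay on both sides of the start site without covering it, the nearest 45 bp downstream. Upstream, 22 Myc-ESC H3K27me3 peaks, none more than 1000 bp from the next, formed a run from intron 2 of Evx2 to chr2:74666929, and the nearest of them lay 1296 bp before the Hoxd13 start site.

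Hoxd12, active with Hoxd11 and Hoxd13 in the distal limb, was called for H3K27me3 in Myc-ESCs only. It had 0 bp in LIF-ESCs against 828 bp in Myc-ESCs. The LIF-ESC peak nearest to it (chr2:74677596-74678220, 625 bp) scored 175, the highest of that list in the window, and started 2583 bp downstream of the start site, just past the 2500 bp limit. The Myc-ESC peak over the same place (chr2:74677126-74679102) was 1977 bp long and scored 1026, the highest H3K27me3 score of the window. It runs from the end of Hoxd12 exon 2 into the sequence before Hoxd11 and is counted at both genes. Hoxd12 had no H3K4me3 peak over its start site: the nearest ended 1695 bp upstream in LIF-ESCs and 1171 bp upstream in Myc-ESCs, in intergenic sequence between Hoxd13 and Hoxd12.

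Hoxd11 and Hoxd10, which pattern the forearm, the lower leg and the lumbosacral spine, had Suz12 over most or all of their windows. Hoxd11 had 6713 bp in LIF-ESCs against 7398 bp in Myc-ESCs of a 7766 bp window. Hoxd10 had all 5001 bp in both cultures. H3K27me3 covered 625 and 3314 bp at Hoxd11 and 450 and 3125 bp at Hoxd10, whose highest scores were 84.9 in LIF-ESCs against 558 in Myc-ESCs. At Hoxd10 62.5% of the window was thus covered in Myc-ESCs, the largest share among the members. H3K4me3 was over the start site of Hoxd10 with 2261 and 2413 bp and scores of 172 and 165, and over the upstream start site of Hoxd11 with 1679 and 2194 bp and scores of 67.9 and 78.4. Between Hoxd11 and Hoxd9, 30 Myc-ESC H3K27me3 peaks formed the longest run of the window, 13542 bp when peaks within 1000 bp were joined, whereas the longest such run in LIF-ESCs was 1406 bp, in exon 2 of Hoxd13 and just past it.

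Hoxd9, which acts with its HoxA and HoxC paralogs in the proximal limb and the lumbar spine, had 150 bp of H3K27me3 in LIF-ESCs, 1081 bp downstream of the start site, and 2169 bp in 10 peaks in Myc-ESCs. H3K4me3 was narrower in Myc-ESCs, with 1796 bp and a score of 109 in LIF-ESCs and 1434 bp and a score of 53.4 in Myc-ESCs, close to the lowest score in the lists. Suz12 covered 4455 and 5001 bp. In Myc-ESCs a single Suz12 peak of 19909 bp (chr2:74683233-74703141) ran from Hoxd11 over Hoxd10 and Hoxd9 to the sequence before Hoxd8, and the longest LIF-ESC Suz12 peak of the window was 8836 bp.

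Hoxd8, a central member, was the only one with H3K4me3 in LIF-ESCs and none in Myc-ESCs, where the nearest H3K4me3 peak lay 5414 bp away, at Hoxd3. The LIF-ESC peak covered 1376 bp over the upstream start site with a score of 77.0, so neither culture has a call when only scores of at least 100 are kept. H3K27me3 covered 204 bp in 1 peak in LIF-ESCs and 3412 bp in 10 peaks in Myc-ESCs, the largest Myc-ESC value of the 9. Suz12 covered 4280 and 5324 bp.

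The anterior genes differed among themselves. Hoxd4, a regulator of the cervical vertebrae and hindbrain, was the only member called for H3K4me3 in Myc-ESCs alone and the other one called for H3K27me3 in Myc-ESCs alone. Its H3K4me3 covered 0 bp in LIF-ESCs against 2063 bp in Myc-ESCs, in a peak of score 60.6 that began 438 bp downstream of the start site. Both cultures had a further H3K4me3 peak inside the gene (chr2:74726593-74728134 in LIF-ESCs and chr2:74726410-74728670 in Myc-ESCs), over exon 5, where the coding sequence begins. Within 5000 bp of the start site the LIF-ESC peak is counted and the difference in H3K4me3 is gone, as is the one in H3K27me3, which had a LIF-ESC peak 4064 bp downstream of the start site. Within the 2500 bp limit H3K27me3 covered 0 and 726 bp, and Suz12 was 3206 bp in LIF-ESCs against 2260 bp in Myc-ESCs, the largest difference in favour of LIF-ESCs among the members. The strongest Suz12 peaks over the gene scored 2351 (chr2:74724720-74727942, LIF-ESCs) and 3212 (chr2:74724151-74728377, Myc-ESCs), and the 2500 bp limit leaves out the first and takes in the edge of the second.

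Hoxd3, which shapes the upper cervical spine, had H3K4me3 over its start site with 1861 and 2460 bp and scores of 112 and 216. Its H3K27me3 covered 145 bp in a LIF-ESC peak 136 bp upstream of the start site, which no Myc-ESC peak overlapped, and 1568 bp in Myc-ESCs, none of it nearer than 1081 bp. Suz12 covered 4999 and 4967 bp. Hoxd1, the first member to be used and one known for a role in sensory neurons, had the highest H3K4me3 scores of the window, 694 and 839, over 1766 and 2733 bp. It also had the least Suz12 in LIF-ESCs, 1548 bp, against 2605 bp in Myc-ESCs, with highest scores of 127 and 532, and its H3K27me3 covered 255 and 1404 bp.

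No H3K27me3 peak covered a start site of any of the 9 genes in either culture. A peak over a start site was also rare over all genes, with 2.60% of the 1000 genes marked in LIF-ESCs and 3.84% of the 2811 marked in Myc-ESCs. These peaks are short, and at the marked genes they covered a median of only 3.12% and 6.36% of the gene window. Whether they keep away from start sites was not tested. Suz12 covered a start site at 7 members in LIF-ESCs against 8 in Myc-ESCs (39.5% and 48.9% of the Suz12-marked genes), and H3K4me3 did so at 7 and 6 (95.0% and 95.2% of the genes with H3K4me3). Averaged over position, a Myc-ESC H3K27me3 peak covered 4.80 of the 9 genes between 2500 and 500 bp upstream of the first start site, 1.71 genes within 500 bp of it, and 2.92 genes between 500 and 2500 bp downstream. The LIF-ESC averages were 0.525, 0.333 and 0.375. H3K4me3 had the reverse profile, with 2.30, 6.10 and 3.40 genes in Myc-ESCs, and Suz12 was nearly level, with 6.78, 7.81 and 8.00.

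**Figure D3:**
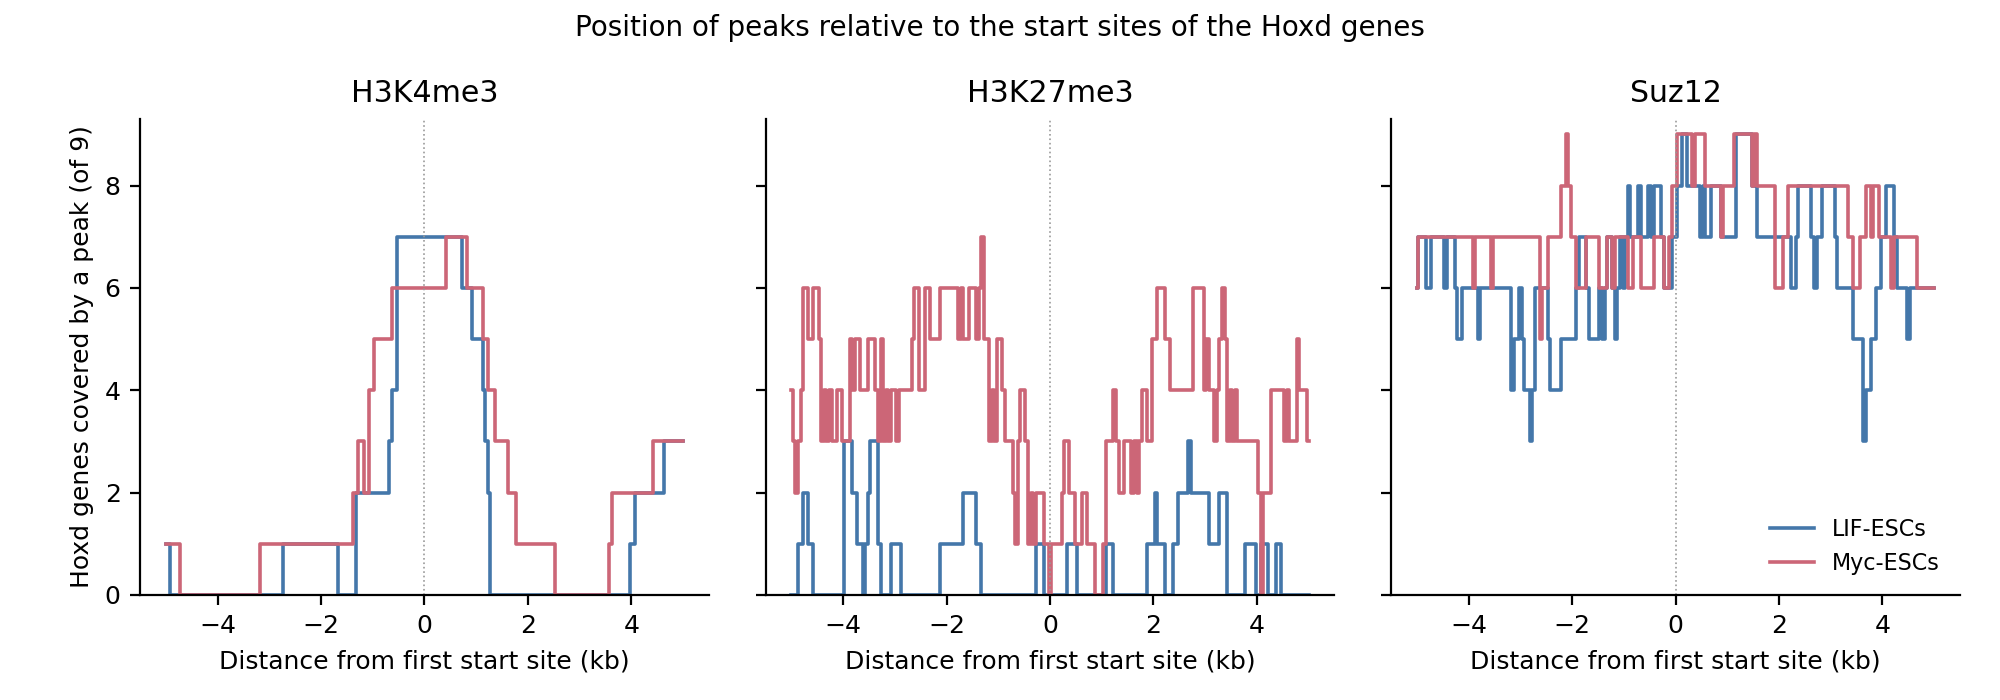
Number of the 9 Hoxd genes covered by a peak at each position from 5 kb before to 5 kb after the first start site, for LIF-ESCs (blue) and Myc-ESCs (red). H3K4me3 peaks on the start sites, Myc-ESC H3K27me3 dips there to a mean of 1.71 genes within 500 bp, and Suz12 covers 6 or more genes at most positions in Myc-ESCs.

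Base composition differed between the 3 kinds of peak. The window as a whole had a ratio of observed to expected CpG of 0.461, against 0.190 for all chromosomes. Under H3K4me3 peaks of the window the ratio was 0.691 in LIF-ESCs against 0.608 in Myc-ESCs, under Suz12 peaks 0.507 and 0.502, and under H3K27me3 peaks 0.425 and 0.358. CACGTG occurred 20 times in the window, or 1.67 times per 10 kb against 1.01 over all chromosomes. A match counted as covered if at least 1 of its bases lay in a peak. Suz12 peaks covered 13 of the 20 in LIF-ESCs against 19 in Myc-ESCs, while they made up 65.6% and 73.6% of the window. Several matches counted in Myc-ESCs only lay just past a LIF-ESC Suz12 peak, such as chr2:74667996-74668001, past a peak ending at chr2:74667964. H3K4me3 peaks, 17.9% and 25.8% of the window, covered 9 and 11 matches. H3K27me3 peaks covered 1 in each culture. The Myc-ESC H3K27me3 peaks thus held 0.232 matches per 10 kb although they made up 35.9% of the window. Within 2500 bp of the start sites 6 of the 9 genes had a match, against 50.8% of all genes. A match is only a run of letters, and Myc binding was not among the values analysed here.

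By annotation, Myc-ESC H3K27me3 covered 50.5% of the exon bases outside the coding sequence, 45.0% of the intergenic bases, 27.3% of the intron bases and 24.3% of the coding bases of the window. LIF-ESC H3K27me3 covered 10.9%, 6.03%, 3.16% and 2.33% of them. H3K4me3 had another order, with 52.6% of the coding bases and 18.4% of the intergenic bases covered in Myc-ESCs.

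The window also holds genes other than the members. Evx2, a homeobox gene next to Hoxd13 that shares its regulation, had 302 bp of H3K27me3 in LIF-ESCs against 2727 bp in Myc-ESCs, with Suz12 over all 5001 bp in both. Haglr, a long non-coding RNA read from the opposite strand, starts 84 bp from Hoxd1, so both have the same H3K4me3 peaks. Hoxd3os1 was the only gene of the window with no H3K4me3 in either culture, and also the only one with less H3K27me3 in Myc-ESCs, 311 bp in LIF-ESCs against 185 bp. The start sites of the transcripts Gm38462 and Gm14424 had 349 and 410 bp of H3K27me3 in LIF-ESCs and 4015 and 1692 bp in Myc-ESCs, and a Myc-ESC H3K27me3 peak lay over the start site of Gm14424.

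Mir10b, the microRNA gene in intron 4 of Hoxd4, was the one place where a LIF-ESC H3K27me3 peak covered a whole transcript, the 68 bp hairpin at chr2:74726070-74726137. A Myc-ESC peak covered 54 of these bases, and Suz12 covered all 68 in both cultures. Its mature forms, named by arm and with the seed (bases 2 to 8) in capitals, are known to target Hox transcripts among others.
mmu-miR-10b-5p: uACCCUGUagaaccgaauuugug
mmu-miR-10b-3p: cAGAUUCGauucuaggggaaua

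The Suz12 and H3K27me3 peaks of the cluster ended inside the window on one side only. On the Hoxd1 side the last Suz12 peak ended at chr2:74764439 in LIF-ESCs and chr2:74764559 in Myc-ESCs, and the 100 kb beyond the window held 0 Suz12 and 0 H3K27me3 peaks in either culture. On the other side both marks went on over the end of Evx2, with 567 bp of H3K27me3 in LIF-ESCs against 3888 bp in Myc-ESCs in the 100 kb before the window. The nearest protein-coding genes outside, Lnpk and Mtx2, had H3K4me3 over their start sites in both cultures and neither Suz12 nor H3K27me3. Their H3K4me3 scores were 3100 in both cultures for Lnpk and 2560 and 1650 for Mtx2, above every H3K4me3 score of the window.

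Set against all genes marked by the same list, the members had more Suz12 and Myc-ESC H3K27me3 and less H3K4me3. The medians of the members are over all 9 genes, whereas the other medians are over marked genes only. Members without a peak enter at 0%: Hoxd4 (LIF-ESCs) and Hoxd8 (Myc-ESCs) for H3K4me3, and Hoxd12 and Hoxd4 for LIF-ESC H3K27me3. The median share of the gene window covered by Suz12 was 86.4% in LIF-ESCs against 95.3% in Myc-ESCs, against 17.2% and 24.0% for all Suz12-marked genes, and 9 of 9 members were above those medians. For Myc-ESC H3K27me3 it was 37.6% against 6.36%, again with 9 of 9 above, and for LIF-ESC H3K27me3 3.47% against 3.12%, with 5 of 9 above. For H3K4me3 it was 35.3% and 41.3% against 64.0% and 67.1%, and 0 of 9 members were above.

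The other Hox clusters, the most similar regions of the genome, showed the same pattern, and with 1 list per culture no difference between clusters could be tested. Over the span from the first to the last base of its Hox genes, HoxD had 5.18% of its bases under H3K27me3 in LIF-ESCs against 36.6% in Myc-ESCs. HoxA had 4.32% and 37.5%, HoxC 3.87% and 36.2%, and HoxB 1.94% and 13.3%. The spans differ in length, with 96.9 kb for HoxD, 106 kb for HoxA, 116 kb for HoxC and 174 kb for HoxB. By share of its span, HoxD had the highest Suz12 cover of the 4 in LIF-ESCs, 70.8%. In bases this was 68597 bp, against 71003 bp in HoxA, 70677 bp in HoxB and 65087 bp in HoxC. HoxD also had the smallest ratio of Myc-ESC to LIF-ESC Suz12 bases, 1.10 against 1.28, 1.32 and 1.48 for HoxA, HoxB and HoxC. In Myc-ESCs its Suz12 cover was 78.2%, below 85.9% in HoxA and 83.1% in HoxC. The H3K27me3 peak between Hoxd12 and Hoxd11, 1977 bp, was longer than any H3K27me3 peak of HoxA, HoxB or HoxC in Myc-ESCs, where the longest were 1105, 690 and 811 bp. Of the other 30 Hox genes 18 had H3K27me3 in LIF-ESCs against 30 in Myc-ESCs, and all 30 had Suz12 in both. H3K4me3 was found at 22 and 28 of them: 7 had it in Myc-ESCs only, and Hoxa13 was the single gene to have it in LIF-ESCs only.

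**Figure D4:**
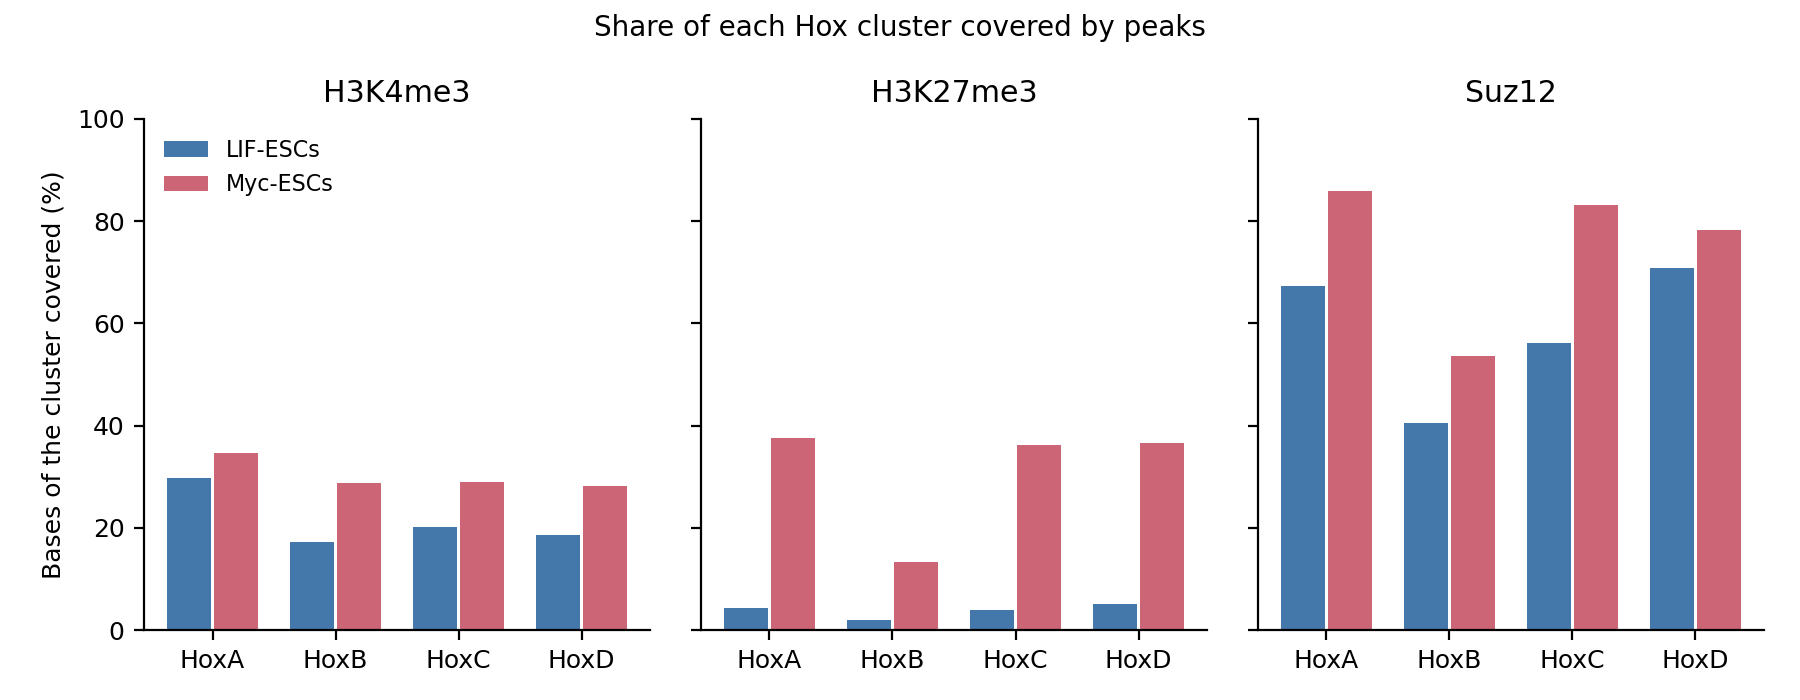
Percentage of the bases of each Hox cluster, from the first to the last base of its genes, covered by peaks in LIF-ESCs (blue) and Myc-ESCs (red). H3K27me3 covers 36.6% of HoxD in Myc-ESCs and 5.18% in LIF-ESCs, and Suz12 covers 78.2% and 70.8%.

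Of the 14 Hox cofactors and Hox-linked genes (the Meis, Pbx and Pknox cofactors, Evx1, Evx2 and the Cdx genes), 6 had H3K27me3 in LIF-ESCs against 7 in Myc-ESCs, the additional one being Cdx4, an upstream regulator of Hox genes. Suz12 was at 9 of them in each culture and H3K4me3 at 14 and 13. The 5 genes outside the Hox clusters whose covered bases over the 6 lists were most like the median of the members were Vax1, Emx2, Emx2os, Tbx2 and Pax3, with a mean absolute difference of 170 to 274 bp per list. Emx2 and Emx2os start close together and share most of their peaks. Vax1, a homeobox gene of the ventral forebrain, had 148 bp of H3K27me3 in LIF-ESCs against 1640 bp in Myc-ESCs, and Pax3, a paired-box gene of the neural crest and of muscle precursors, had 154 and 1390 bp. The members themselves lay between 195 bp (Hoxd9) and 1202 bp (Hoxd4) from their own median. All 8 ESC marker genes, Pou5f1, Sox2 and Nanog among them, had H3K4me3 in both cultures, against 62.2% and 63.3% of all genes. Most of the fibroblast markers had it too, so this call is no check of the labelled cell type. Suz12 was at 2 of the 8 ESC markers in LIF-ESCs (Esrrb and Dppa3) and at 4 in Myc-ESCs (also Klf4 and Tbx3). H3K27me3 was at 1 in LIF-ESCs (Dppa3) and at 3 in Myc-ESCs (also Esrrb and Tbx3). Of 6 fibroblast markers 4 and 5 had H3K4me3, 2 and 4 had Suz12 and 1 and 2 had H3K27me3, in the same order of cultures, and peaks do not measure expression.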

How the data were processed

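The authors mapped reads with Bowtie2 2.2.3 to GRCm38 (mm10) and called peaks with MACS 1.4.2, per the labels and the study's methods, keeping reads with a unique best match. The deposited lists give each peak's position and its score, -10 times the log10 of the MACS p-value, from 50 up and mostly capped near 3100. Each of the 6 lists stands for 2 libraries, and how these were combined is not given in the sources used here. Depth is unknown, so no interval could be given, and no replicate could be compared.

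Peaks were intersected with start sites of 45756 curated RefSeq transcripts (GRCm38) of 26180 symbols in Python 3.11.15 with pandas 2.3.3, numpy 2.4.6 and pysam 0.24.0, and the interval code was tested on simulated data. Named genes were the 9 members, the other genes of the window, the nearest protein-coding gene on each side, other Hox genes as counts, and the 5 genes outside the Hox clusters nearest in covered bases. Members and lists were chosen with earlier results of these data known. Nothing was tested. Alternatives changed the score minimum, the list length, the start-site window and the overlap.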

Additional observations from a re-analysis of the deposited data

How the results depend on the processing

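Values were recomputed with peaks scoring at least 100, lists of equal length per antibody, other windows around start sites, and other definitions of a shared peak. Bases of the HoxD window covered at a score of at least 100 were 14242 (LIF-ESCs) and 17536 (Myc-ESCs) for H3K4me3, and 1724 and 28086 for H3K27me3. With equal lists the Myc-ESC H3K27me3 bases were 27474. Suz12 bases stayed within 1.5 times under both. H3K27me3 covered more of the window in Myc-ESCs under each of these settings, 16.3 times as much at a score of at least 100 and 4.43 times with equal lists. Over the whole genome 3378 Myc-ESC and 339 LIF-ESC H3K27me3 peaks reached that score. The ratio of bases over the whole lists is not given under either setting, so neither value can be read as particular to the cluster.

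Members marked by H3K4me3 numbered 5 and 4 at a score of at least 100 (59.8% and 61.2% of all genes), none of them in Myc-ESCs only (0), and within 5000 bp 0 were marked in Myc-ESCs only. Members marked by H3K27me3 in LIF-ESCs numbered 1 at that score (0.458% of all genes) and 2 within 1000 bp (1.74%). Those marked in Myc-ESCs only were 8 at that score, 6 within 1000 bp and 0 within 5000 bp, and 1 gene, Hoxd3, was marked in LIF-ESCs only within 1000 bp. Myc-ESC H3K27me3 was called at 3.73% of all genes at that score, 6.20% within 1000 bp and 11.9% within 5000 bp. In LIF-ESCs it was 4.74% within 5000 bp. The share of all genes marked in 1 culture only is not given under these settings for any antibody. Suz12 marked 9 of 9 in both cultures under every setting. Where all genes were counted, its share of them was 8.25% to 12.7% in LIF-ESCs and 11.3% to 15.4% in Myc-ESCs. Using only the most upstream start site moved none of the 12 counts by over 1.5 times.

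At a score of at least 100, shared H3K4me3 peaks numbered 6 of 7 in each culture. For H3K27me3 they were 5 of 5 in LIF-ESCs and 6 of 60 in Myc-ESCs, and for Suz12 34 of 36 in LIF-ESCs and 22 of 29 in Myc-ESCs. With an overlap of 50% of both peaks, shared peaks numbered 6 and 6 for H3K27me3 and 12 and 12 for Suz12. For Myc-ESC H3K27me3 they were 17 with equal lists and 80 when within 1000 bp. The shares of the whole lists are not given for the score minimum, for equal lists or for 1000 bp. Those counts thus cannot be read as particular to the cluster.

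At a score of at least 100, H3K4me3 covered 11.1% and 14.4% of the HoxD span. H3K27me3 in LIF-ESCs covered 0% of HoxA, 0.473% of HoxB, 0.855% of HoxC and 1.39% of HoxD at that score. In Myc-ESCs it covered 21.7%, 5.40%, 21.5% and 23.0%, and with equal lists 21.0%, 5.20%, 20.9% and 22.4%. HoxD thus had the largest H3K27me3 share in Myc-ESCs under these 2 settings, whereas HoxA had it in the lists as deposited (37.5% against 36.6%). Each setting changes the peaks, the window or the overlap that is counted, and why a value moved was not tested.

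No paired analysis was possible because each culture and antibody has 1 list and no value per library, and leaving out a replicate was not possible for the same reason. The precision of any single peak is limited by an unknown depth, and only 5 of the 32 LIF-ESC H3K27me3 peaks of the window score 100 or more.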
